A study of Mus musculus with 5 samples.

Results

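The 10 genes described here encode proteins that damp or reset signalling once it has started: Dusp1, Dusp4, Dusp5, Dusp6, Socs3, Sik1, Rgs2, Gem, Gadd45b and Nfil3. They were taken by gene name from a table of 21667 genes, and all 10 were present and passed the filter on low values. Their working label was feedback genes induced by cAMP, but their direction depended on the scaling of the values, so they are called the feedback genes here. After the scaling described below, no treated library lay above the single untreated one for Dusp1, Gem and Gadd45b. As deposited, both cAMP libraries lay above it for 9 of the 10 genes, where 91% of all genes tested did. Forskolin, a plant compound that activates adenylyl cyclase, or cAMP, the second messenger that this enzyme makes, had been put on shaved back skin, and RNA-seq of the whole epidermis was used to ask how the transcription factor Creb acts on the hair cycle.

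There were 2 forskolin libraries (10 µM), 2 cAMP libraries (1.325 mM) and 1 library labelled untreated. All came from wildtype C57BL/6 male mice, 7 weeks old (postnatal day 49), and each compound was applied 3 times within 5 days in DMSO and PLO lotion. The labels do not say whether the untreated skin received lotion, nor whether each library came from its own mouse, so the p-values rest on a spread between libraries that may be technical only. Epidermis was freed with trypsin overnight before the RNA was taken. All 7 marker genes of basal keratinocytes looked at, such as Krt5 and Krt14, were at 0.1 CPM or more in all 5 libraries. The 8 of suprabasal keratinocytes, such as Krt1 and Krt10, were too, except Flg, which was listed at 0 in the second cAMP library. Dermal and skeletal muscle genes such as Col1a2 and Myh4 were listed in all 5 libraries as well.

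cAMP activates protein kinase A, which phosphorylates Creb, and Creb binds cAMP response elements near the start sites of many rapidly induced genes. Feedback genes are often among those, because a cell that has received a signal makes the proteins that end it. The Dusp proteins remove phosphates from MAP kinases, Socs3 blocks cytokine receptors that use JAK kinases, Sik1 is a kinase that holds back the Creb coactivators, Rgs2 switches off Gq proteins, and Gem is a small GTPase that dampens calcium channels. Gadd45b binds a MAP kinase kinase kinase in stressed cells, and Nfil3 is a repressor of clock genes and a regulator of immune cells. Dusp1, Socs3, Gadd45b and other members are also known to be induced when tissue is taken apart with enzymes.

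Start site windows were available from RefSeq (build GRCm38.p6) for 7 members: Rgs2, Gadd45b, Dusp6, Socs3, Nfil3, Dusp1 and Dusp5. The cAMP response element TGACGTCA, which reads the same on both strands, was found in the 250 bases before the start in 1 of these 7 windows, that of Dusp1, and in 1.55% of all 32851 windows in the table. Its shorter form TGACG, searched on both strands and contained in the longer one, was found in 4 of the 7 windows and in 17.8% of all. These 4 windows are shown because they hold the letters that Creb is known to bind, with TGACG or its complement in capitals. Each runs 5′ to 3′ toward the gene and stops before the first base of the gene's main transcript in the deposited table.
Dusp1: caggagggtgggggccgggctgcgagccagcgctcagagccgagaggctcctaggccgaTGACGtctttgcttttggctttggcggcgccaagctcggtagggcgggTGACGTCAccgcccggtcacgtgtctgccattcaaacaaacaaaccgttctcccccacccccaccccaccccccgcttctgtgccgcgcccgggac
Rgs2: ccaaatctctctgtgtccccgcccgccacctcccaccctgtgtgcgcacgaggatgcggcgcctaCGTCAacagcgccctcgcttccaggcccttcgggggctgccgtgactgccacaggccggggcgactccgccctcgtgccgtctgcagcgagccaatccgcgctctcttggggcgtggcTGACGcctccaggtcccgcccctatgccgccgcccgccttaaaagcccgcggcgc
Dusp5: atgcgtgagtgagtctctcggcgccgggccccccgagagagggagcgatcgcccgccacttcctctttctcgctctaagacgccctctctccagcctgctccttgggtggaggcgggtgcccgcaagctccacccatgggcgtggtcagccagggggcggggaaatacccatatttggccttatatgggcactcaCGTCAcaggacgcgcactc
Nfil3: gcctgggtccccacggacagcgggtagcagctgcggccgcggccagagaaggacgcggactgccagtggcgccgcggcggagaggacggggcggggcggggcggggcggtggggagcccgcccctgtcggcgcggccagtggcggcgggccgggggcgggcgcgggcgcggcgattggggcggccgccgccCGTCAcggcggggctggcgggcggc
The Dusp1 window is chr17:26508520-26508722 on the minus strand, with matches that begin 191, 143 and 140 bases before the RefSeq start, the last pair being the full element. The Rgs2 window is chr1:144004162-144004399 on the minus strand, with matches at 185 and 67 bases. The Dusp5 window is chr19:53528895-53529108 on the plus strand, with a match at 55 bases, and the Nfil3 window is chr13:52981074-52981289 on the minus strand, with a match at 59 bases. A match describes letters only and is no evidence of binding in these cells.

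The untreated library was made up differently from the treated ones. Mitochondrial genes took 50.7% and 45.6% of the listed values with forskolin and 43.1% and 58.0% with cAMP, against 69.3% in the untreated library. Nuclear genes, without pseudogenes and rRNA, held 31.3% and 34.7% with forskolin and 37.8% and 25.9% with cAMP, against 7.86% untreated. With 1 untreated library, this difference in make-up and the treatment cannot be told apart. Values as deposited are in CPM, reads scaled to one common library total, and on that scale the median difference over all genes was 1.69 log2 units for forskolin and 1.66 for cAMP against the untreated library. All values were therefore also divided by median-of-ratios size factors, which were 1.39 and 1.29 for forskolin, 1.60 and 1.09 for cAMP and 0.319 for the untreated library. After this scaling the median gene was 0.18 (forskolin) and 0.15 (cAMP) log2 units above the untreated library. Changes are given on the scaled values, as log2 of scaled CPM + 1, which understates the change of low genes, and members' differences from the untreated library as deposited are given beside them, except for Dusp4.

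In forskolin-treated epidermis 4 of the 10 feedback genes rose and none fell: Socs3, Dusp4, Nfil3 and Dusp5. Of all 13398 genes tested, 15% rose and 6.61% fell in that comparison (limma, Benjamini-Hochberg adjusted p under 0.05). The filter of 1 scaled CPM in 2 libraries could not be met without a treated library. A gene seen only in the untreated library was therefore not tested, a limit on the shares of all genes too. Dusp4 and Nfil3 were below 1 scaled CPM in the untreated library, and with no filter neither passed with forskolin, which left 2 calls. With cAMP 3 rose, namely Dusp4, Socs3 and Dusp5, where 15.6% of all genes rose, and Gadd45b fell, where 6.96% of all genes fell. With no filter Dusp5 and Gadd45b did not pass with cAMP. At an unadjusted p under 0.05 in either direction there were still 4 members with forskolin, where 36.7% of all genes passed, and 7 with cAMP, where 36.6% passed. Those with forskolin were all higher. Of those with cAMP, Dusp4, Socs3, Dusp5 and Nfil3 were higher, and Gadd45b, Gem and Dusp1 were lower. The median member stood at 0.49 log2 units with forskolin and at -0.17 with cAMP. Both libraries lay above the untreated one for 6 members with forskolin (49.8% of all genes tested) and for 4 members with cAMP (47.9%). As deposited, 8 members rose with forskolin and 6 with cAMP, against 66.3% and 65.1% of all genes. Both comparisons use the same single untreated library, so a low or high value in it appears in both. In whole tissue, fewer cells of a type and less RNA per cell cannot be told apart.

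**Figure D1:**
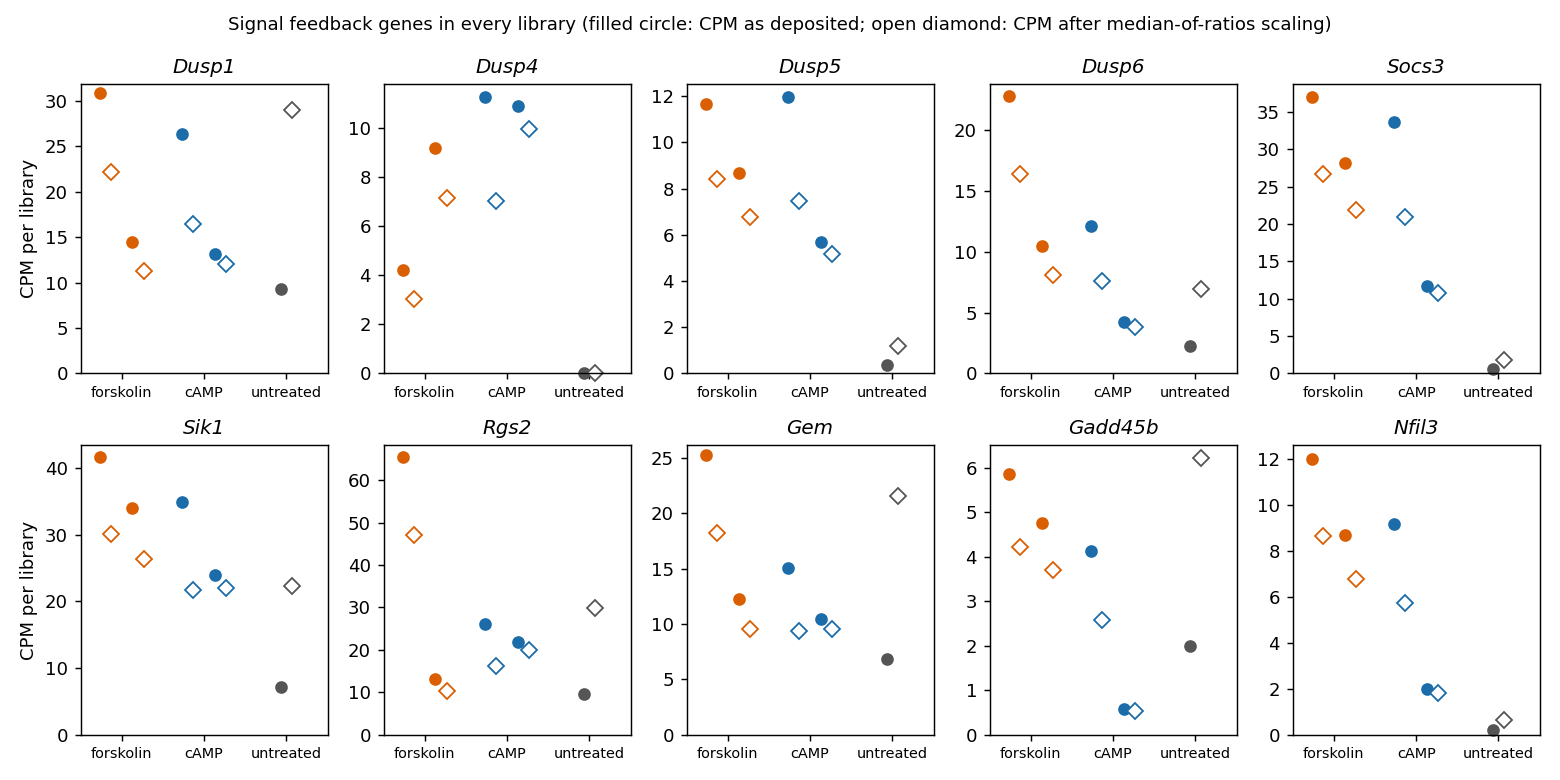
CPM of each feedback gene (vertical axis, starting at 0) in the forskolin, cAMP and untreated libraries, as deposited (filled circles) and after median-of-ratios scaling (open diamonds), with replicate 1 left of replicate 2. Dusp4, Dusp5, Socs3 and Nfil3 have every treated point above the untreated one on both scales, whereas for Dusp1, Gem and Gadd45b the untreated library has the highest open diamond.

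Among the MAP kinase phosphatases, Dusp4 and Dusp5 rose with both compounds. Dusp4, a nuclear phosphatase (ENSMUSG00000031530, chromosome 8, 34807297 to 34819894), was at 3.03 and 7.13 scaled CPM with forskolin and 7.00 and 9.95 with cAMP, and was listed at 0 in the untreated library. All 4 treated libraries held it at 4.20 CPM or more as deposited. It passed with forskolin (limma adjusted p = 0.00194; 0.0596 with no filter on low values) and with cAMP (limma adjusted p = 0.000194), and no fold is given because the untreated library lists it at 0. Dusp5, an ERK phosphatase of the nucleus (ENSMUSG00000034765, chromosome 19, 53529109 to 53542431), was at 8.39 and 6.75 scaled CPM with forskolin and 7.45 and 5.19 with cAMP, against 1.21 untreated. The treated libraries did not overlap the untreated one. Its log2 change was 1.95 ± 0.45 with forskolin (SE, limma adjusted p = 0.00519) and 1.71 ± 0.45 with cAMP (limma adjusted p = 0.0106). As deposited these changes were 2.999 and 2.75. Without cAMP replicate 1 the cAMP change of Dusp5 was 1.49 and did not pass (limma adjusted p = 0.0613).

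Dusp6, the cytoplasmic ERK phosphatase (ENSMUSG00000019960, chromosome 10, 99263231 to 99267488), was at 16.4 and 8.13 scaled CPM with forskolin and 7.56 and 3.85 with cAMP, against 6.98 untreated. Both forskolin libraries lay above the untreated one, and the cAMP libraries lay on either side of it. Its log2 change was 0.66 ± 0.48 with forskolin and -0.31 ± 0.48 with cAMP, and neither passed (limma adjusted p = 0.329 and 0.669). The forskolin value was 0.19 without forskolin replicate 1 and 1.13 without replicate 2, and the cAMP value was -0.72 without cAMP replicate 1 and 0.10 without replicate 2. As deposited Dusp6 passed as higher in both comparisons, at 2.36 and 1.36 log2 units (limma adjusted p = 0.000333 and 0.035).

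Dusp1, a stress-induced MAP kinase phosphatase (ENSMUSG00000024190, chromosome 17, 26505590 to 26508519), was at 22.2 and 11.2 scaled CPM with forskolin and 16.4 and 12.01 with cAMP, against 29.0 untreated. No treated library reached the untreated one on this scale. The log2 change was -0.83 ± 0.43 with forskolin and -0.997 ± 0.43 with cAMP, and neither passed (limma adjusted p = 0.17 and 0.104). The forskolin value was -1.30 without forskolin replicate 1 (limma adjusted p = 0.0513) and -0.37 without replicate 2 (0.658). As deposited the order was the other way, at 30.8 and 14.4 CPM with forskolin and 26.3 and 13.1 with cAMP, against 9.25 untreated. Those differences of 1.11 and 0.94 log2 units were smaller than the median of all genes as deposited and did not pass either (limma adjusted p = 0.0767 and 0.136).

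Socs3, the inhibitor of JAK-STAT signalling (ENSMUSG00000053113, chromosome 11, 117966079 to 117970047), had the largest rise with forskolin among the members with reads in the untreated library. It was at 26.6 and 21.9 scaled CPM with forskolin and 20.96 and 10.7 with cAMP, against 1.84 untreated. Every treated library lay above the untreated one, and both forskolin libraries lay above both cAMP libraries. The log2 change was 3.15 ± 0.44 with forskolin (limma adjusted p = 8.68e-05) and 2.499 ± 0.44 with cAMP (limma adjusted p = 0.000506). As deposited these changes were 4.39 and 3.73. If the smallest value in the untreated column stands for 0.0001 read, Socs3 held 29 reads there (exact 95% Poisson interval 19.4 to 41.6), Dusp5 19 reads (11.4 to 29.7) and Nfil3 10 reads (4.795 to 18.4), intervals that cover counting error only.

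Nfil3 (ENSMUSG00000056749, chromosome 13, 52967209 to 52981073) was at 8.65 and 6.75 scaled CPM with forskolin and 5.72 and 1.82 with cAMP, against 0.635 untreated. The 2 cAMP libraries differed 3.14-fold, and all treated libraries were above the untreated one. Nfil3 rose by 2.40 ± 0.53 log2 units with forskolin (limma adjusted p = 0.00363; 3.22 as deposited), a call that was lost with no filter (0.0781), and its cAMP change of 1.41 ± 0.53 did not pass (limma adjusted p = 0.06). The cAMP change passed as deposited, at 2.20 log2 units (limma adjusted p = 0.00113), and without cAMP replicate 2, at 2.04 (limma adjusted p = 0.0246). Without cAMP replicate 1 it was 0.79 and did not pass (limma adjusted p = 0.295). With its size still 1.41, it passed without forskolin replicate 1 (limma adjusted p = 0.0494) or replicate 2 (0.0462), and not with the top transcript alone (0.157) or no filter on low values (0.217). A pseudocount of 5 gave 0.60 (limma adjusted p = 0.141).

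Sik1 (ENSMUSG00000024042, chromosome 17, 31844248 to 31855792) is a textbook Creb target, and it was at 30.1 and 26.4 scaled CPM with forskolin and 21.8 and 21.9 with cAMP, against 22.3 untreated. The forskolin libraries were above and the cAMP libraries just below the untreated one. Its log2 change was 0.33 ± 0.38 with forskolin, with a 95% interval of -0.47 to 1.12, and -0.03 ± 0.38 with cAMP, with an interval of -0.82 to 0.77. Neither passed (limma adjusted p = 0.555 and 0.967), while as deposited both did, at 2.25 and 1.89 log2 units (limma adjusted p = 0.000419 and 0.00287). The medians over all genes in those comparisons as deposited were 1.69 and 1.66.

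Rgs2, the regulator of Gq proteins (ENSMUSG00000026360, chromosome 1, 143999338 to 144004161), varied most between the forskolin libraries. It was at 47.2 and 10.3 scaled CPM with forskolin and 16.2 and 19.9 with cAMP, against 29.9 untreated, so the forskolin libraries differed 4.59-fold and lay on either side of the untreated one. The log2 change was -0.41 ± 0.56 with forskolin and -0.70 ± 0.56 with cAMP (limma adjusted p = 0.626 and 0.381). One library decided the forskolin value: without forskolin replicate 1 it was -1.45 and passed as lower (limma adjusted p = 0.0239), and without replicate 2 it was 0.64 (limma adjusted p = 0.381). As deposited Rgs2 passed as higher with forskolin, at 1.54 log2 units (limma adjusted p = 0.0154), and not with cAMP, at 1.24 (limma adjusted p = 0.0522).

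Gem (ENSMUSG00000028214, chromosome 4, 11704457 to 11714752) was at 18.2 and 9.51 scaled CPM with forskolin and 9.38 and 9.57 with cAMP, against 21.5 untreated. All treated libraries were below the untreated one. Its log2 change was -0.67 ± 0.43 with forskolin and -1.10 ± 0.43 with cAMP, and neither passed (limma adjusted p = 0.267 and 0.0706). The forskolin value was -1.10 without forskolin replicate 1 and -0.23 without replicate 2. With robust empirical Bayes the cAMP change passed as lower (limma adjusted p = 0.0471). As deposited the differences were 1.24 and 0.79, of which that with forskolin passed as higher (limma adjusted p = 0.0485 and 0.211).

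Gadd45b (ENSMUSG00000015312, chromosome 10, 80930091 to 80932204) was at 4.22 and 3.69 scaled CPM with forskolin and 2.57 and 0.535 with cAMP, against 6.22 untreated. Every treated library was lower than the untreated one on this scale. The log2 change was -0.55 ± 0.54 with forskolin (limma adjusted p = 0.478) and -1.63 ± 0.54 with cAMP (limma adjusted p = 0.0353). The cAMP fall rested on 1 library: without cAMP replicate 2 it was -1.02 and did not pass (limma adjusted p = 0.162). As deposited the forskolin difference of Gadd45b was 1.07 (limma adjusted p = 0.116). It was at 5.85 and 4.75 CPM with forskolin and 4.12 and 0.585 with cAMP, against 1.98 untreated on that scale, and the cAMP difference was -0.07 (limma adjusted p = 0.924).

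**Figure D2:**
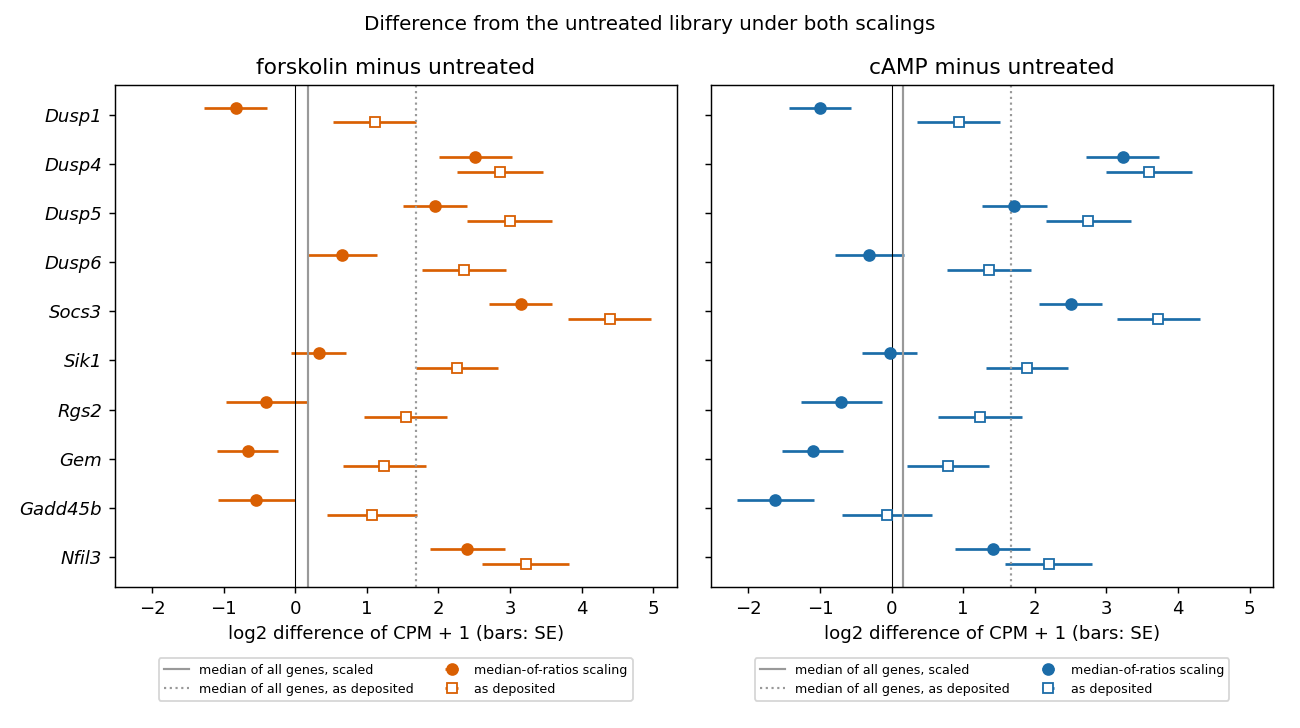
Log2 difference of CPM + 1 from the untreated library (horizontal axis, bars are SE) for each feedback gene with forskolin (left) and cAMP (right), after median-of-ratios scaling (filled) and as deposited (open), with grey lines at the median of all tested genes. Socs3, Dusp4, Dusp5 and Nfil3 lie right of the matching median in both panels, and Dusp1, Rgs2, Gem and Gadd45b lie left of it.

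**Figure D3:**
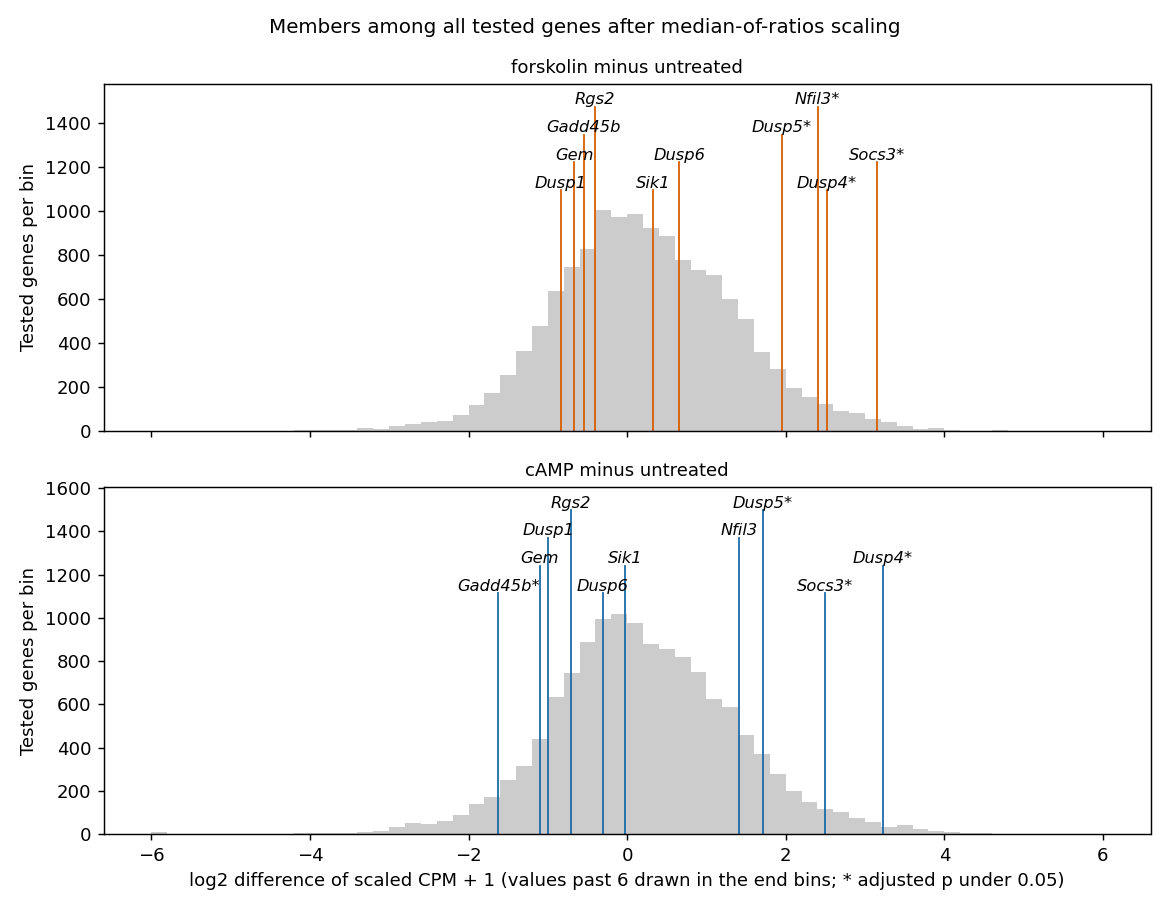
Number of tested genes (vertical axis) by log2 difference of scaled CPM + 1 from the untreated library, with forskolin (top) and cAMP (bottom), and lines at the feedback genes. Members past the threshold carry an asterisk, 4 in each panel, and the others lie between -0.83 and 0.66 with forskolin and between -1.10 and 1.41 with cAMP.

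Forskolin against cAMP asks whether the activator of the cyclase and the messenger itself left the feedback genes at different levels, at doses that differ between the compounds. No member passed, where 0.515% of all genes did (limma adjusted p under 0.05), and 3 members had an unadjusted p under 0.05 against 11.4% of all genes. These were Gadd45b, Dusp6 and Nfil3, each higher with forskolin. Their differences were 1.08 log2 units for Gadd45b (95% interval 0.16 to 1.996, limma adjusted p = 0.335), 0.97 for Dusp6 (0.15 to 1.79, limma adjusted p = 0.335) and 0.99 for Nfil3 (0.09 to 1.89, limma adjusted p = 0.38). All 3 values moved when single libraries were left out. Without cAMP replicate 2 they were 0.47 for Gadd45b, 0.56 for Dusp6 and 0.36 for Nfil3, and without cAMP replicate 1 they were 1.69, 1.38 and 1.62. Dusp6 was 0.502 without forskolin replicate 1 and 1.44 without replicate 2. The difference was above 0 for 9 of the 10 members and for 51.6% of all genes, and Dusp4 was the exception at -0.71 (-1.57 to 0.16, limma adjusted p = 0.56), with -0.202 without forskolin replicate 1 and -1.21 without replicate 2. Both forskolin libraries lay above both cAMP libraries for Dusp6, Socs3, Sik1, Gadd45b and Nfil3, 5 of 10 members against 21% of all genes on the scaled values, but for 1 member against 16.7% of all genes as deposited. For Dusp1, Dusp5, Socs3, Sik1, Rgs2 and Gem the difference ran from 0.16 to 0.65, and the upper ends of their intervals ran from 0.91 to 1.39, so that differences of that size are not excluded. Dusp1 turned to -0.30 without forskolin replicate 1 and to -0.05 without cAMP replicate 2, and Rgs2 to -0.75 without forskolin replicate 1. Socs3 was 1.10 without cAMP replicate 1 and 0.196 without replicate 2.

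**Figure D4:**
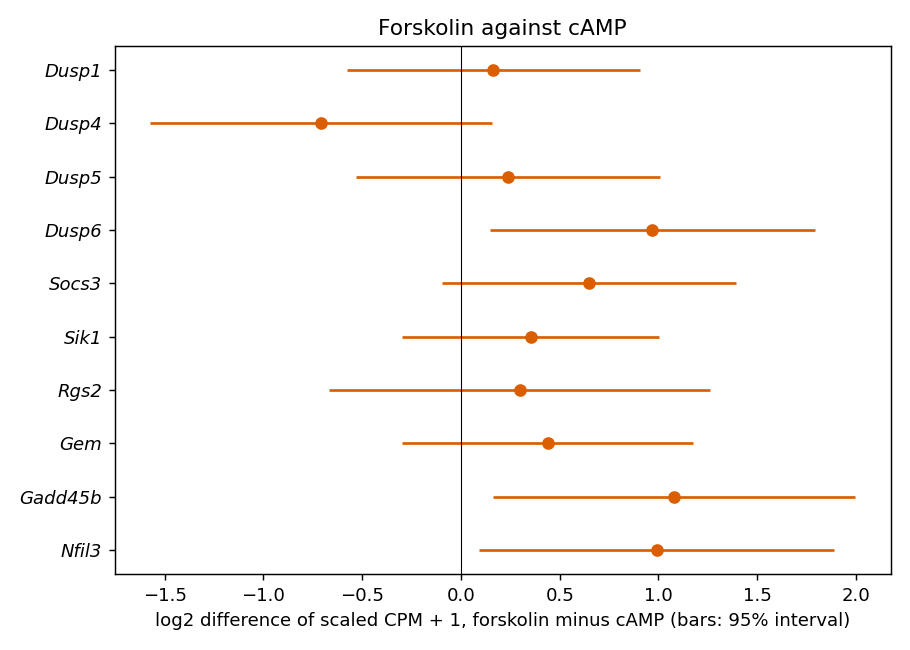
Log2 difference of scaled CPM + 1, forskolin minus cAMP (horizontal axis), for each feedback gene, with bars for the 95% interval of the fit. The intervals of Dusp6, Gadd45b and Nfil3 lie above 0 before adjustment, those of the other members include 0, and Dusp4 is the one member with a point below 0.

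Levels of the members were compared with one another per kilobase of transcript, as scaled CPM per kb averaged over the 5 libraries. Rgs2 was first at 17.0, followed by Dusp1 at 9.94, Socs3 at 7.37, Gem at 6.81 and Sik1 at 5.42. The place of Rgs2 rests on the estimated split between its forms, since those of 588 and 763 bases count for more per kilobase than its main form of 3021 bases. The remaining members were lower and close together, with Dusp6 at 3.07, Gadd45b at 2.68, Dusp5 at 2.34, Nfil3 at 2.33 and Dusp4 at 1.98. Neighbours in this order overlapped between libraries. Socs3 ranked 2, 1, 2 and 3 among the 10 members in the treated libraries and 7 in the untreated one, whereas Gadd45b ranked 9, 8, 10 and 10 in the treated libraries and 5 in the untreated one.

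Transcripts of 4 members were listed in more than one form, and the split between forms is the authors' estimate. Gem had 2 coding transcripts with different starts on chromosome 4, one at 11704457 and one at 11705807. The one with the upstream start held 86.7% and 87.3% of Gem with forskolin and 82.2% and 98.0% with cAMP, against 42.7% untreated. That form made up most of Gem in all treated libraries, and the other form did in the untreated library. With the upstream form alone, the forskolin change of Gem was 0.29 in place of -0.67, and it did not pass (limma adjusted p = 0.702). With cAMP the upstream form was at 12.4 and 10.3 CPM as deposited, against 2.93 untreated. The other form was at 2.68 and 0.21 CPM as deposited with cAMP, against 3.93 untreated, so the lower gene value with cAMP does not describe both forms alike.

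Dusp1 had 1 coding and 2 intron-retaining transcripts, and the retained-intron share was 24.6% and 30.7% with forskolin and 12.5% and 6.45% with cAMP, against 16.1% untreated. Both forskolin libraries thus had a higher share than the cAMP and untreated libraries. Rgs2 had 4 forms, of which the one annotated to nonsense-mediated decay held 20.9% and 40.4% with forskolin and 27.3% and 17.6% with cAMP, against 31.3% untreated, with no separation of the groups. For Socs3, noncoding forms held at most 4.91% in any library. These shares were not tested.

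**Figure D5:**
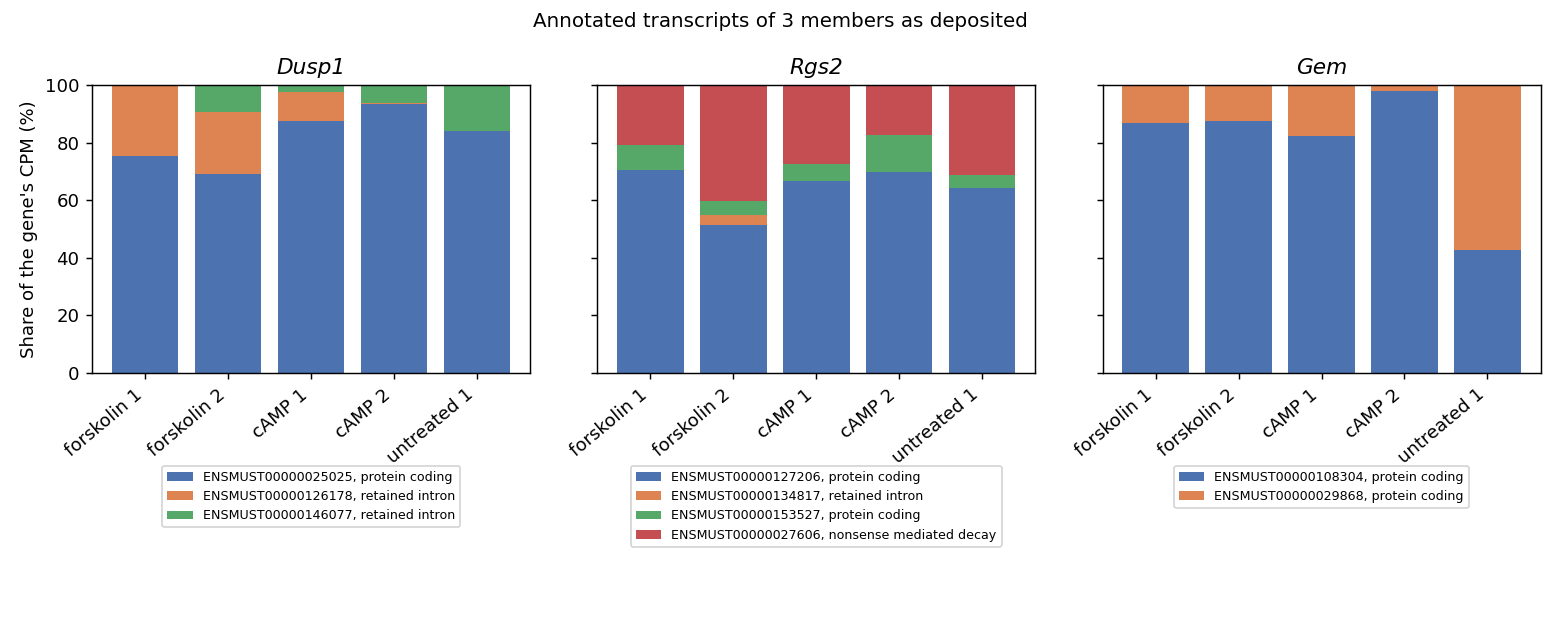
Share of the gene's deposited CPM (vertical axis, percent) held by each annotated transcript of Dusp1, Rgs2 and Gem in every library. The coding form of Gem with the upstream start takes 82.2% or more in the treated libraries and 42.7% in the untreated one.

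The feedback genes did not follow one profile. Likeness was measured as the root mean square difference between profiles of log2 scaled CPM + 1 over the 5 libraries, each centred on its own mean. Dusp1 and Gem were the most alike pair at 0.19, followed by Socs3 and Nfil3 at 0.41, and Dusp4 and Gadd45b were the least alike at 1.89. Only tested genes with a mean at or above the median of 8.14 scaled CPM could be named as nearest. Dusp4, Dusp5, Gadd45b and Nfil3 lay below that level and could not be named. Within that limit no member had another member as its nearest gene. With so many other candidates, this says little about how alike the members are. The nearest genes were Tspan5 for Sik1 (0.04), Tk1 for Dusp5 (0.05), Tollip for Gem (0.07), Prkab2 for Nfil3 (0.09), Rnf170 for Dusp1 (0.09), Xrcc1 for Socs3 (0.14), Racgap1 for Gadd45b (0.14), Xcl1 for Dusp6 (0.14), Aco1 for Dusp4 (0.15) and Sat1 for Rgs2 (0.25).

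Relatives of the members and their pathways were counted on the scaled values, where 15% of all genes rose with forskolin and 15.6% with cAMP. As deposited, where 66.3% and 65.1% of all genes rose, none of the genes in these lists fell, and more of them rose. The counts as deposited with forskolin and cAMP were 3 and 3 of 8 Dusp genes tested, 6 and 6 of 8 Sprouty and Spred genes, and 13 and 11 of 16 Socs and JAK-STAT genes. They were 9 and 9 of 9 genes around Sik1, 6 and 5 of 10 Rgs genes, 2 and 3 of 4 genes around Gadd45b, and 5 and 5 of 7 relatives of Nfil3. Of 7 other Dusp genes tested, none rose and 1 fell with forskolin, Dusp14 (-1.40, limma adjusted p = 0.0341, turning to 0.27 as deposited), and none passed with cAMP. Of 8 Sprouty, Spred and related inhibitors of growth factor signalling, 2 rose and 1 fell with forskolin and 2 rose and 2 fell with cAMP. Errfi1, an inhibitor of the EGF receptor, rose by 2.33 log2 units with forskolin and 1.502 with cAMP (limma adjusted p = 0.000812 and 0.0149), and Ier3 by 1.61 and 1.68 (limma adjusted p = 0.0149 and 0.0106). Spry1 fell by 1.34 and 1.75 (limma adjusted p = 0.0421 and 0.0101), and stood at 0.45 and 0.03 as deposited.

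Among 16 genes of the Socs family and JAK-STAT signalling, 2 rose and 1 fell with forskolin, and 1 rose and 2 fell with cAMP. Cish, an inhibitor of the same kind as Socs3, was at 16.8 and 19.9 scaled CPM with forskolin and 9.96 and 9.89 with cAMP, against 1.91 untreated. It rose by 2.73 log2 units with forskolin and 1.91 with cAMP (limma adjusted p = 0.000161 and 0.00261). Il6ra, a receptor chain upstream of Socs3, fell by 2.27 with cAMP (limma adjusted p = 0.000594, -0.36 as deposited) and was higher with forskolin than with cAMP by 1.52 (limma adjusted p = 0.0439; 0.139 as deposited).

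Of 9 genes around Sik1, 1 rose with each compound, Hdac4, whose protein the Sik kinases keep out of the nucleus. Hdac4 was at 12.9 and 16.3 scaled CPM with forskolin and 9.52 and 14.9 with cAMP, against 0.381 untreated, a change of 3.49 and 3.23 log2 units (limma adjusted p = 3.88e-05 and 4.35e-05). Of 10 other Rgs genes tested, 2 rose with forskolin, Rgs14 (2.53, limma adjusted p = 0.00105) and Rgs1 (1.94, limma adjusted p = 0.00743), and 1 with cAMP, Rgs14 (2.49, limma adjusted p = 0.000996). Of 3 relatives of Gem, 2 were in the table and neither passed the filter on low values, and none of the 4 genes around Gadd45b passed in either comparison on the scaled values. Of 7 relatives and targets of Nfil3, Per1 rose (3.38 and 2.36, limma adjusted p = 1.4e-05 and 0.000232) and Hlf fell (-1.29 and -2.50, limma adjusted p = 0.0256 and 0.000208). As deposited Hlf was at 0.68 with forskolin and -0.57 with cAMP and did not pass (limma adjusted p = 0.279 and 0.365). Per2 was higher with forskolin than with cAMP by 1.499 (limma adjusted p = 0.0401; 0.164 as deposited).

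Of 18 genes known to respond to tissue handling, 6 rose and 1 fell with forskolin, where 15% and 6.61% of all genes did, and 6 rose and 2 fell with cAMP, where 15.6% and 6.96% did. As deposited 16 of the 18 rose with each compound, where 66.3% and 65.1% of all genes did. They summed to 620 and 578 scaled CPM with forskolin and 607 and 477 with cAMP, against 447 untreated, and none was under 0.1 CPM in any library. Fosb rose by 3.58 and 2.27 log2 units (limma adjusted p = 0.000131 and 0.00421) and Ier2 by 2.35 and 3.01 (limma adjusted p = 0.000868 and 7.39e-05). Heat shock genes of the list went the other way in part. Dnajb1 was at 27.0 and 24.5 scaled CPM with forskolin and 23.2 and 21.9 with cAMP, against 54.1 untreated. Hspb1 was at 25.2 and 29.0 with forskolin and 34.3 and 15.9 with cAMP, against 65.5 untreated. The other heat shock genes of the list were not lower in every treated library. Hsph1 was at 13.1 and 12.8 scaled CPM with forskolin and 13.4 and 12.4 with cAMP, against 6.79 untreated. Hspa8, Hspa1a and Hspa1b had treated libraries on either side of the untreated one. As deposited neither was lower in every treated library.

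Suprabasal keratinocyte markers fell in 5 of 8 cases with forskolin and 6 of 8 with cAMP, summing to 1992 and 1832 scaled CPM with forskolin and 1631 and 1003 with cAMP, against 4782 untreated. As deposited 1 of 7 tested fell with each compound and 1 rose with forskolin. Of 7 basal keratinocyte markers none passed with forskolin and 2 fell with cAMP, while as deposited 5 rose with forskolin and 1 with cAMP. Sebaceous gland markers rose in 6 of 8 cases with forskolin and 8 of 8 with cAMP, and as deposited in 8 of 8 with each. Dermal fibroblast markers fell in 4 of 6 cases with forskolin and 1 of 6 with cAMP, while as deposited 3 fell and 1 rose with forskolin, and none fell and 1 rose with cAMP.

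Among immune cells, 2 of 8 markers of Langerhans cells and MHC class II rose with forskolin and 1 with cAMP. Of 8 T cell markers 1 rose with forskolin and none passed with cAMP. Of 7 myeloid markers 2 rose and 1 fell with forskolin and 2 rose with cAMP. As deposited 8 and 8 of the Langerhans cell markers, 8 and 7 of the T cell markers and 3 and 3 of the myeloid markers rose with forskolin and cAMP. Of 6 melanocyte markers none passed with forskolin and 2 rose with cAMP, with 4 and 4 higher as deposited. Of 6 skeletal muscle markers 2 fell with each compound, and as deposited none fell and 1 rose, with cAMP. Of 2 adipocyte markers tested 1 fell with each compound and 1 rose with cAMP, with 1 higher in each comparison as deposited, and the 1 endothelial marker tested passed in neither. The first forskolin library, which had the highest scaled value of 6 members, also had the highest sums for T cell, Langerhans cell, basal keratinocyte, myeloid and tissue handling genes. The part of these cell types and of tissue handling in the values of the feedback genes was not tested.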

How the data were processed

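RNA-seq of total mouse epidermis was deposited as 1 table of 59869 transcripts in CPM, a unit read from the values, since each deposited column summed to between 805256 and 947144. The tools were STAR, Partek and bcl2fastq 2.17, per the submitters' processing notes, and the genome build, annotation and settings are not given in the sources used here. Columns were matched to libraries by code and number. Transcripts were summed per gene, leaving out 3 rows without a gene. If each column's smallest value stands for 0.0001 read, depths were 34200000 to 51700000 reads. On that scale 59.6% to 75.7% of gene sums of 0.5 to 20 reads lay within 0.1 of a whole read, so whole reads were not recovered for nearly all genes and no count test was run. Of the members' 18 transcripts, 16 had the coordinates of GENCODE M21 (GRCm38), with table ends lowered by 1 base.

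Size factors were medians of ratios over 11935 genes above 0.05 CPM in every library. Genes with at least 1 scaled CPM in at least 2 libraries (13398) were tested with limma 3.58.1 in R 4.3.3 on log2(scaled CPM + 1), with an intensity trend, all 5 libraries and 3 groups in one fit, 2-sided, with Benjamini-Hochberg adjustment over all tested genes. The fit had 2 residual and 17.2 prior degrees of freedom, so a gene's spread came mostly from the trend, and with 1 untreated library its variance was taken to equal that of the treated groups. The script was also run on simulated data with normal noise, which did not mimic the different make-up of the untreated library. All 10 members are named. Of other lists up to 3 genes with the smallest p per comparison could be named, and likeness named the nearest gene at or above the median level. Keratinocyte genes named for their presence and the heat shock genes were named outside that rule. The members and lists were chosen with earlier results of these data known. Alternatives covered scaling, pseudocount, filter, empirical Bayes, the top transcript, leaving out each library, and a replicate block.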

Additional observations from a re-analysis of the deposited data

How the results depend on the processing

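With forskolin the 4 calls among the 10 members, where 2902 of 13398 genes were called, became 8 as deposited, where 9177 of 13764 were. They became 2 with no filter on low values (1967 of 21667 genes). At a filter of 10 scaled CPM, 1 of 5 members tested was called (1300 of 6407 genes). With cAMP the 4 calls (3024 of 13398 genes) became 6 as deposited (9025 of 13764) and 2 with no filter (2360 of 21667). They became 1 of 5 at a filter of 10 (1355 of 6407 genes), and 2 with the top transcript alone. Leaving out single libraries gave 4 to 5 calls with forskolin and 3 to 5 with cAMP, and forskolin against cAMP gave 0 in every alternative run. Robust empirical Bayes gave 6 with cAMP (3433 of 13398 genes) and kept 4 with forskolin (3360 of 13398). Nuclear scaling, quantile normalization and pseudocounts of 0.1 and 5 kept 4 calls in each comparison with the untreated library, though not always the same members.

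As deposited, direction turned with forskolin for Dusp1 (1.11), Rgs2 (1.54), Gem (1.24) and Gadd45b (1.07), and with cAMP for Dusp1 (0.94), Dusp6 (1.36), Sik1 (1.89), Rgs2 (1.24) and Gem (0.79). The top transcript turned Gem with forskolin (0.29) and Dusp1 between the compounds (-0.14). Leaving out a library gave -1.45 to 0.64 for Rgs2 with forskolin, -0.72 to 0.10 for Dusp6 with cAMP, and, between the compounds, -0.30 to 0.63 for Dusp1 (-0.05 without cAMP replicate 2) and -0.75 to 1.35 for Rgs2. With no filter, Dusp4 (limma adjusted p = 0.0596) and Nfil3 (0.0781) did not pass with forskolin, nor Dusp5 (0.0602) and Gadd45b (0.161) with cAMP. With cAMP the top transcript ended the calls of Dusp5 (0.0531) and Gadd45b (0.116), and a pseudocount of 0.1 ended that of Gadd45b (0.0507) and gave one to Nfil3 (0.0337), as did robust empirical Bayes (0.0346).

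Over all genes, 2902 calls with forskolin became 9177 as deposited, 1300 at a filter of 10 and 1716 with the top transcript. The 3024 with cAMP became 9025, 1355 at a filter of 10, and 1863 and 1926 without cAMP replicate 1 and 2. The 69 between the compounds became 42 with quantile normalization, 8 with a pseudocount of 0.1, 0 with no filter, 0 with the top transcript, 141 at a filter of 10, 173 with robust empirical Bayes, 202 without forskolin replicate 2, and 0 without either cAMP library. Except where fewer genes or libraries entered, the cause was not tested. Same-numbered libraries share only a number: their deviations correlated at -0.07 across genes, and a replicate block on the 4 treated libraries gave 182 calls and 0 among the members. Few or no reads in the untreated library limit Nfil3, Dusp5, Socs3 and Dusp4, and Hdac4 and Rgs14 among the relatives. Its estimated depth of 49400000 reads lay within the range of the treated libraries, while nuclear genes held 7.86% of its listed values.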
